A study of Mus musculus with 12 samples.

Results

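Some probes of an Agilent mouse expression array are named by a stretch of chromosome instead of a gene, and the results below describe their signals in pluripotent cells with more or less Tbx3. Members were the probes of the array's long intergenic noncoding RNA (lincRNA) set whose only name is a chromosome interval with an ending F or R. F stands for the forward and R for the reverse strand of the genome, in mm9 coordinates. The rule found 16181 of the 55681 probes that are not controls. They fall into 3540 intervals and 4607 interval-strands, an interval-strand being all probes to 1 strand of 1 interval. Of the interval-strands, 2104 overlap another interval on the same strand, so the counts below are not counts of separate regions. Of the intervals, 1067 were probed on both strands, 1251 on F alone and 1222 on R alone. An interval-strand had a median of 3 probes, with a range from 1 to 10, and the median interval was 7315.5 bases long.

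The study asked how Tbx3 takes part in the network that keeps cells pluripotent. Total RNA was measured in mouse embryonic stem cells (mESC), with 4 Tbx3-high and 4 Tbx3-low samples, and in mouse induced pluripotent stem cells (iPSC), with 2 Tbx3-null and 2 wild-type samples. Labelling used 50 ng of RNA with Cy3 for each array, giving 12 one-colour arrays on 2 slides. No age, strain, treatment or time is given for the cells. The sort or treatment behind the high and low labels, the deleted part of the gene in the null cells and the culture each sample came from are not given here. P-values therefore reflect sample-to-sample spread that may be technical. All mESC arrays lay on slide 1 and all iPSC arrays on slide 2, and within each slide the groups occupied different columns. Slide column and group therefore cannot be told apart, and mESC and iPSC levels were not compared.

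LincRNAs are transcripts longer than a set minimum that encode no known protein and lie outside protein-coding genes. Many are spliced and polyadenylated like messenger RNAs, most are present at low levels, and some act on neighbouring genes or on chromatin. Where the extent of such a transcript was known only from chromatin marks or sequencing, its strand was often uncertain, and an array can place probes to both strands to find out which one is transcribed. Tbx3, a member of the T-box family of transcription factors, helps to keep stem cells undifferentiated and also takes part in the formation of extraembryonic endoderm.

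The sequences of 12 member probes that the results turn on are given here, 5′ to 3′, each a 60-mer that matches the named strand, as the scanner files list it. Capitals mark the polyadenylation signal letters AATAAA where they occur. The first set belongs to interval-strands whose signal changed in opposite directions in the 2 comparisons. The chromosome 14 probes lie among the probes of the noncoding gene Dleu2, and the chromosome 8 interval lies between the probes of Sox1ot and Spaca7.
Interval that holds a Dleu2 probe, R strand, chr14:62294981-62295040: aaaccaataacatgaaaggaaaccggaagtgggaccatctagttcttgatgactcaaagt
Interval between Dleu2 probes, R strand, chr14:62280942-62281001: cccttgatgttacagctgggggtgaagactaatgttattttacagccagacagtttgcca
Interval between Sox1ot and Spaca7, R strand, chr8:12541262-12541321: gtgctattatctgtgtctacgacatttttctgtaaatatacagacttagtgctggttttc

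The next set shows intervals whose probes lie opposite each other, so that the R and F probes are largely reverse complements. Such a pair separates the strands at 1 place. The first pair shares 51 complementary bases and lies near the probe of Scarb1. The second pair shares 55 and lies in an interval that holds a probe of the noncoding gene 2010204K13Rik on the R strand.
Interval near Scarb1, F strand, chr5:125719028-125719087: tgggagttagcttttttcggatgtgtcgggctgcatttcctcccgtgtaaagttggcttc
Interval near Scarb1, R strand, chr5:125719019-125719078: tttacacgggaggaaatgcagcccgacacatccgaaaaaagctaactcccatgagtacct
Interval of 2010204K13Rik, F strand, chrX:7000010-7000069: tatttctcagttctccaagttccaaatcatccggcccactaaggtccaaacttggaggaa
Interval of 2010204K13Rik, R strand, chrX:7000005-7000064: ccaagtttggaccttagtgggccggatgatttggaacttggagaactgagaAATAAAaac

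The last set holds the interval-strands with the largest measured falls in iPSC and 1 interval whose strands moved apart. No gene probe lies inside these intervals. The nearest gene probes are those of Cbx7 and Pdgfb for chromosome 15, of Gucy1a2 and Aasdhppt for chromosome 9, of Ccdc28a and Nhsl1 for chromosome 10, and of the zinc finger genes Zfp985 and Zfp979 for chromosome 4.
Interval between Cbx7 and Pdgfb, R strand, chr15:79796505-79796564: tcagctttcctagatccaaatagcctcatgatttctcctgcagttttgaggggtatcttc
Interval between Gucy1a2 and Aasdhppt, F strand, chr9:4261117-4261176: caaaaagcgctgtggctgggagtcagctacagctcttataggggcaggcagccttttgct
Interval between Ccdc28a and Nhsl1, F strand, chr10:18057899-18057958: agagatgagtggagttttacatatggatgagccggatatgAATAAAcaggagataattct
Interval between Zfp985 and Zfp979, F strand, chr4:146968056-146968115: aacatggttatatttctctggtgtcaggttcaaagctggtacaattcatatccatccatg
Interval between Zfp985 and Zfp979, R strand, chr4:146967990-146968049: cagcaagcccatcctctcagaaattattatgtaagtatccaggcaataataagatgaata

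Values are log2 of the processed spot intensity minus the 75th percentile of the same array, and each step of 1 is a doubling. That percentile was 279.9 to 412 intensity units across mESC and 620 to 898 across iPSC. Member probes were dim, with a median of -5.15 over the arrays against -2.59 for the other probes. No spot of a non-control probe was saturated. A group counts as detecting a probe when the scanner software called it well above background on every array of the group. The number of arrays limits the precision of all values.

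Most interval-strands were detected. Of 4607, 3634 (78.9%) had a detected probe in at least 1 group: 2736 in Tbx3-low mESC, 2810 in Tbx3-high mESC, 3318 in null iPSC and 3598 in wild-type iPSC. All 4 groups detected 2599, and 973 were detected in neither cell type. Counted by single probes, 54.9% of members and 71.3% of the other probes were detected in at least 1 group. Wild-type iPSC detected 307 interval-strands that null iPSC did not, and the reverse held for 27. The other probes were also detected less in null (65.6%) than in wild type (70.0%), against 45.8% and 53.4% of member probes. In the mESC, 174 were detected in Tbx3-high and not in Tbx3-low, and 100 in Tbx3-low only. Of the other probes, 60.3% were detected in Tbx3-low and 60.5% in Tbx3-high, against 35.1% and 36.5% of member probes. The share of member probes well above background on single arrays was 37.8% to 52.5% in mESC. It was 49.1% to 49.3% on the null arrays and 56.5% to 57.5% on the wild-type arrays. Null replicate 1 and wild-type replicate 2 both had a 75th percentile of 821 intensity units, with shares of 49.3% and 56.5%. The part of array brightness in the counts was not tested. Detection rose with the number of probes, from 59.4% of interval-strands with 1 probe to 97.5% of those with 6 or more, and with base composition, from 29.5% of probes under 30% GC to 85.4% of probes at or above 60% GC.

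Both strands were detected in most intervals that had probes to both. Among these 1067 intervals, 809 had both strands detected in at least 1 group, 93 only F, 119 only R and 46 neither. Within single groups the intervals with both strands numbered 530 in Tbx3-low and 550 in Tbx3-high mESC, 798 in wild-type and 707 in null iPSC. F was detected in 84.5% and R in 87.0% of them, while strands probed alone were detected in 73.5% (F) and 72.4% (R). The count of 809 fell to 466 when a strand needed at least 2 detected probes, and to 478 when it had to be detected on all 12 arrays. A stricter view comes from 2647 pairs of F and R probes of 1 interval that overlap in position: both were detected in 827, F alone in 521, R alone in 726 and neither in 573. An exchange of the detected strand between groups was seen in 1 interval of the mESC, chr18:5119300-5181600, and in none of the iPSC.

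The Tbx3 probe, at chr5:120134511-120134570 on the array, checks the labels. Its level was 5.90 to 5.92 on the Tbx3-low arrays and 7.20 to 7.28 on the Tbx3-high arrays, a difference of 1.31 ± 0.08 (SE; limma adjusted p = 7.74e-07, n = 4 and 4). In iPSC it read 5.68 and 5.66 on the null-labelled arrays and 5.16 and 5.52 on the wild-type arrays, a difference of 0.33 ± 0.11 in favour of the arrays labelled null (limma adjusted p = 0.0458). The probe may lie outside the deleted part and then checks nothing, so directions in iPSC rest on the labels. The 8 pluripotency markers examined (such as Zfp42 and Esrrb) were all tested in both cell types, with a summed level of 9.23 to 9.58 on every array. In mESC 3 were higher in Tbx3-high, among them Zfp42 by 0.44 ± 0.07 (limma adjusted p = 0.000795) and Esrrb by 0.49 ± 0.07 (limma adjusted p = 0.000679), and 1 was lower, and in iPSC 1 was higher in null. Of 7 primitive endoderm markers, 3 were higher in Tbx3-high mESC (summed level 0.70 to 1.18, against 0.20 to 0.65 in Tbx3-low) and 3 lower in null iPSC (-1.20 to -1.18, against -0.54 to -0.48 in wild type). Fibroblast or feeder markers summed to 2.40 to 5.03 in Tbx3-high and 2.86 to 3.09 in Tbx3-low mESC, the highest value being that of Tbx3-high replicate 2, and to 2.48 to 2.66 in null and 2.46 to 2.56 in wild-type iPSC. Of 6 tested in mESC 2 were higher and 1 lower, and of 9 in iPSC 3 were higher and 2 lower. Col1a1 and Pdgfrb moved in both, by 1.52 and 1.82 with high Tbx3 and by -2.31 and -2.21 in null. Tagln moved the other way in both, by -1.38 with high Tbx3 and by 0.57 in null. In null Acta2 also rose, by 1.17, and Lum was at least 1.52-fold higher, so the list did not move together. Blood markers summed to -0.09 to 0.14 against 0.55 to 0.73 in mESC and to -1.26 to -1.15 against -0.43 to -0.20 in iPSC. The part of these cell types in the results below was not tested.

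Within 500 kb of the Tbx3 probe lie 6 interval-strands, and no change of theirs passed the test. Of these, 3 were not detected in any group. The other 3 changed by 0.27 (chr5:120269342-120279542, R), -0.05 (chr5:119945358-119962612, F) and 0.28 (the same interval, R) between Tbx3-high and Tbx3-low, and by -0.14, 0.22 and 0.31 between null and wild type. Tbx3-high replicates 1, 2 and 4 read -2.50 to -2.43 at the first of these and replicate 3 read -3.00. The gene probe nearest to the second interval, AW549542 at 57531 bases, did change: 1.42 ± 0.14 in mESC (limma adjusted p = 2.35e-05) and -0.90 ± 0.20 in iPSC (limma adjusted p = 0.00657).

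In mESC, 411 of 2910 tested interval-strands differed between Tbx3-high and Tbx3-low, 227 higher and 184 lower in Tbx3-high. This is 14.1%, against a background of 25.1% of all probes tested (13.2% higher, 11.8% lower) and 27.1% of the probes that are no members. In 348 of the 411 all arrays of one group lay above all arrays of the other. Among all probes this held for 7018 of the 7689 called, which is 22.9% of the 30693 tested. At least 2-fold changes were found in 36, 15 higher and 21 lower, where 3.66% of all probes had such a change. The median change was 0.047, close to that of all probes, 0.029. An interval-strand was represented by its tested probe with the highest mean signal. Where the representative had passed the test, 550 of 595 other tested probes of the same interval-strand (92.4%) had the same sign.

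Several falls had no gene probe inside the interval. On the F strand of chr10:92547995-92556102, which lies 147130 bases from the nearest gene probe, that of the kinase gene Cdk17, the Tbx3-low arrays read -3.25, -3.03, -2.91 and -2.72 and the Tbx3-high arrays -4.63, -4.47, -4.50 and -4.49. The change was -1.55 ± 0.11 (limma adjusted p = 3.51e-06), with Tbx3-high below Tbx3-low on every array. In iPSC the change there was 0.16 ± 0.16 and did not pass the test (limma adjusted p = 0.542). The R strand of chr11:116562925-116574575 fell by 1.49 ± 0.18 on the log2 scale (limma adjusted p = 0.000127). It lies 24831 bases from the probe of St6galnac2, a sialyltransferase gene, which fell by 1.11 ± 0.06 (limma adjusted p = 7.74e-07).

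On the R strand of chr19:53517903-53540753, around the noncoding gene Mirt1, Tbx3-high was lower than Tbx3-low by 1.31 ± 0.29 (limma adjusted p = 0.00726), with Tbx3-low at -1.87 to -1.04 and Tbx3-high at -3.47 to -2.19. The gene probe of Mirt1, on the same strand, also fell, by 0.92 ± 0.21 on the log2 scale (limma adjusted p = 0.00746). For 2 interval-strands Tbx3-high was dim on all arrays and gives only a bound. The F strand of chr6:57583950-57624216, around Herc6, was at least 2.73-fold lower in Tbx3-high (limma adjusted p = 0.000112). The Herc6 probe, also on F, changed by 0.54 ± 0.34 without passing the test (limma adjusted p = 0.293). Strand F of chr17:22815742-22828592, between vomeronasal receptor and predicted genes, was at least 2.26-fold lower in Tbx3-high (limma adjusted p = 0.00888).

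Among the largest rises were the strands at Dleu2 and between Sox1ot and Spaca7 described with both comparisons below. The F strand of chr16:50715231-50841124 rose by 1.85 ± 0.56 (limma adjusted p = 0.0335), with 1 Tbx3-low array well above background, and lost its call without Tbx3-low replicate 2, 3 or 4 or Tbx3-high replicate 2 or 4 (limma adjusted p = 0.0513 to 0.0911). At chr8:48480224-48480698, R, the rise was 1.73 ± 0.40 (limma adjusted p = 0.0086), with 2 Tbx3-low arrays well above background. Further along chromosome 14, chr14:55671783-55680316, R, lies 198 bases from a probe of Zfhx2, a zinc finger homeobox gene. Its Tbx3-low arrays read -0.70, -0.71, -0.80 and -0.79 and its Tbx3-high arrays 0.35, 0.28, 0.17 and 0.31, a rise of 1.03 ± 0.09 (limma adjusted p = 1.04e-05). All Tbx3-high values lay above all Tbx3-low values, and 4 of 5 tested probes of the strand were called. The gene probe of Zfhx2 rose by 0.83 ± 0.13 (limma adjusted p = 0.000638). At chr6:82608223-82669023, R, between Pole4, a DNA polymerase subunit gene, and the hexokinase gene Hk2, the rise was 1.16 ± 0.18 (limma adjusted p = 0.000623), while the changes of both neighbours, 0.09 and 0.19, did not pass the test. Between probes of Ttc28, chr5:111565658-111566257, F, rose by 1.28 ± 0.27 (limma adjusted p = 0.00503) and was well above background on only 2 of the 4 Tbx3-low arrays. Ttc28 itself rose by 0.48 ± 0.10 (limma adjusted p = 0.00444). At chr8:26343277-26352902, F, the rise was 0.99 ± 0.22 (limma adjusted p = 0.00757).

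On the X chromosome more member strands fell than rose with high Tbx3. In mESC, 26 of 109 tested X-linked interval-strands were called (23.9%), 5 higher and 21 lower. Of the X probes that are no members, 390 of 981 tested were called (39.8%), 70 higher and 320 lower. In iPSC, 14 of 139 X-linked interval-strands were called (10.1%), 8 higher and 6 lower, and 412 of 1150 X probes that are no members (35.8%), 221 higher and 191 lower. The splits of members and other probes were not tested against each other.

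In iPSC, 523 of 3625 tested interval-strands differed between null and wild type, 217 higher and 306 lower in null. This is 14.4%, against 28.1% of all probes tested (15.5% higher, 12.6% lower) and 32.1% of the probes that are no members. At least 2-fold changes numbered 201, of which 51 were higher and 150 lower, where 9.71% of all probes had such a change. A probe could enter this test through the group where it was high. With both groups required to detect it, 477 of 3284 interval-strands were called, 221 higher and 256 lower. The split depended on the scaling. Taking the 75th percentile over probes detected on all arrays moved the median change of all probes from 0.057 to -0.058. With it, 127 were higher and 366 lower. With quantile normalization 240 were higher and 268 lower, and with the series table values 312 and 355. Leaving out null replicate 1 left 347 calls, and leaving out wild-type replicate 1 left 313. Of 960 other tested probes belonging to called strands, 818 (85.2%) had the sign of their representative.

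The largest measured falls in null iPSC were larger than the largest measured rises. At chr15:79795261-79796945, R, the wild-type arrays read 0.97 and 0.91 and the null arrays -4.64 and -4.05. This was a 38.9-fold fall, -5.28 ± 0.37 on the log2 scale (limma adjusted p = 4.42e-06). It rested on 1 of 2 probes, the other changing by -0.63 without passing the test. The neighbours on both sides rose, Cbx7, a Polycomb subunit gene, by 1.21 ± 0.24 (limma adjusted p = 0.00344) and the growth factor gene Pdgfb by 1.34 ± 0.17 (limma adjusted p = 0.000217).

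At chr9:4260788-4261404, F, the wild-type arrays read 2.23 and 1.69 and the null arrays -3.36 and -3.09, a 36.4-fold fall, -5.19 ± 0.20 on the log2 scale (limma adjusted p = 7.73e-08). Both probes of this short interval fell, with changes of -5.19 and -5.35. In mESC the same strand was also lower in Tbx3-high, by 0.53 ± 0.14 on the log2 scale (limma adjusted p = 0.0177, and 0.0503 without Tbx3-low replicate 2). The nearest gene probe, that of Aasdhppt at 33880 bases, rose by 0.38 ± 0.11 in null iPSC (limma adjusted p = 0.0218).

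Further falls reached several probes of the same strand. On the F strand of chr10:18036490-18059965 the wild-type arrays read -2.09 and -2.18 and the null arrays -5.69 and -4.89, a change of -3.15 ± 0.23 (limma adjusted p = 6.63e-06). All 4 tested probes were called, 1 of the 2 null arrays was well above background, and Nhsl1, 193500 bases away, fell by 0.93 ± 0.15 on the log2 scale (limma adjusted p = 0.000959). At chr13:19611679-19620954, R, all 5 tested probes were called, and the representative changed by -2.99 ± 0.29 (limma adjusted p = 4.34e-05). At chr10:24269165-24276690, R, 41591 bases from Ccn2, a gene for a secreted matrix-associated protein, wild type read -0.43 and -0.21 and null -3.51 and -2.89. All 5 probes were called there, the representative at -2.88 ± 0.27 (limma adjusted p = 3.59e-05), and Ccn2 fell by 1.12 ± 0.12 (limma adjusted p = 7.92e-05).

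Some fallen strands lay beside a fallen gene on the same strand, here Heatr5a and Ccdc152. The R strand of chr12:52944867-52971992, 5074 bases from Heatr5a, changed by -2.99 ± 0.20 (limma adjusted p = 2.71e-06) while Heatr5a changed by -1.42 ± 0.14 (limma adjusted p = 4.54e-05). The R strand of chr15:3230734-3251196 starts at the probe of Ccdc152 and was at least 7.43-fold lower in null (limma adjusted p = 2.68e-05). The bound holds only for the scanner's own background subtraction: with normexp, which adds an offset to every signal, and quantile normalization the fold was 2.04, and in the series table it was 2.97. The 8 bounds given for member strands were 2.26 to 7.43, and the folds of these strands were 1.38 to 2.13 and 1.51 to 2.97 under those settings. Ccdc152 changed by -2.99 ± 0.85 (limma adjusted p = 0.0242), whereas Ghr, the growth hormone receptor gene on the other side, rose by 0.63 ± 0.19 (limma adjusted p = 0.0307). Near Olig2, a basic helix-loop-helix gene not tested in iPSC, the F strand of chr16:91198576-91199149 changed by -2.69 ± 0.25 (limma adjusted p = 3.25e-05). Strand F of chr16:92180800-92196850 was at least 6.39-fold lower in null (limma adjusted p = 0.000851), and no fallen gene is named beside it.

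A fall on chromosome 2 was shared by near copies. The probe of chr2:176598132-176602354, R, between the predicted genes Gm14305 and Gm14410, read 1.29 and 0.97 in wild type and -1.94 and -1.77 in null, a change of -2.99 ± 0.15 (limma adjusted p = 4.03e-07). It matches a probe of chr2:176874642-176906929, R, at 58 of 60 bases, and that probe changed by -2.68 (limma adjusted p = 1.92e-06). At such identity the probes may bind each other's transcripts, so which copy changed is uncertain. Among 71 probes of named interval-strands examined, 4 matched another probe elsewhere at 50 or more bases.

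Rises in null iPSC included both strands of chr13:31736054-31781679, between the forkhead genes Foxf2 and Foxc1, whose own probes were not tested because neither iPSC group detected them. The F strand read -2.99 and -2.50 in null while both wild-type arrays were dim, and it was at least 7.37-fold higher in null (limma adjusted p = 1.23e-05). Its fold was 2.13 with normexp and quantile normalization and 2.68 in the series table. The R strand read -1.43 and -1.10 in null and -4.04 and -3.41 in wild type, a rise of 2.46 ± 0.25 (limma adjusted p = 6.00e-05). On the R strand of chr1:115787961-115860711, 2032464 bases from the nearest gene probe, that of Dsel, the rise was 2.45 ± 0.13 (limma adjusted p = 7.85e-07), from -1.61 and -1.66 in wild type to 0.85 and 0.78 in null. In mESC these changes were -0.29, 0.39 and 0.12, and none passed the test.

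The F strand of chr5:105032961-105037248 rose by 2.67 ± 0.14 (limma adjusted p = 5.88e-07), from -2.62 and -2.97 to -0.13 and -0.12. The zinc finger gene Zfp951 on its right, 205041 bases away, fell by 2.78 ± 0.10 (limma adjusted p = 4.73e-08). On chromosome 4 the F strand of chr4:146889650-146904300, 2132 bases from the zinc finger gene Zfp982, read 0.90 and 0.94 in wild type and 2.73 and 2.85 in null, a rise of 1.87 ± 0.10 (limma adjusted p = 4.65e-07), and Zfp982 rose by 0.97 ± 0.11 (limma adjusted p = 0.000124). Its probe matches that of the F strand between Zfp985 and Zfp979, printed above, at 52 bases, and which interval the signals came from was not tested.

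Other rises were less stable. The F strand of chr16:45016828-45069177 was at least 7.30-fold higher in null, with the null arrays at -1.61 and -3.91 (limma adjusted p = 0.0248). It did not pass the test without null replicate 1 (limma adjusted p = 0.192), without wild-type replicate 1 (limma adjusted p = 0.0915) or without wild-type replicate 2 (limma adjusted p = 0.0983). Strand F of chr4:140841206-140841639 rose by 1.80 ± 0.48 (limma adjusted p = 0.0181), with null at -2.45 and -4.43, and did not pass without wild-type replicate 1 (limma adjusted p = 0.0862) or 2 (limma adjusted p = 0.0666). At chr18:36488813-36489249, F, the rise was 2.59 ± 0.80 (limma adjusted p = 0.0352), lost without null replicate 1 (limma adjusted p = 0.148) or 2 (limma adjusted p = 0.0892) and without wild-type replicate 1 (limma adjusted p = 0.12) or 2 (limma adjusted p = 0.123).

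Both comparisons tested 2901 interval-strands, and 156 passed in both, against a background of 12.2% of all probes. Their share was 5.38%. In 110 the directions were opposite, 63 higher in Tbx3-high and lower in null and 47 the reverse, and in 46 they were the same, 18 up and 28 down. Opposite directions made up 70.5% of the interval-strands and 73.2% of all probes called in both.

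Strands at the Dleu2 locus were among them. Dleu2 is a noncoding gene whose primary transcript hosts microRNAs. On the R strand of chr14:62294849-62301165 the Tbx3-low arrays read -4.13, -3.62, -3.74 and -3.57 and the Tbx3-high arrays -1.97, -2.15, -2.68 and -2.30. The rise was 1.49 ± 0.18 (limma adjusted p = 0.000132). In iPSC the null arrays read -2.48 and -1.91 and the wild-type arrays -0.21 and -0.42, a fall of 1.88 ± 0.27 on the log2 scale (limma adjusted p = 0.000493). The groups overlapped in neither cell type, and both probes of the strand were called in both.

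Another interval of the locus, chr14:62280837-62283960, R, moved in the same directions. Tbx3-low read -4.15, -4.38, -5.54 and -5.48, with 2 arrays well above background, and Tbx3-high -2.88, -3.08, -2.93 and -3.18, a rise of 1.87 ± 0.28 (limma adjusted p = 0.000618). Null read -3.10 and -2.78 and wild type -1.19 and -1.16, a change of -1.77 ± 0.42 (limma adjusted p = 0.00987). That call did not hold without null replicate 1 (-1.61, limma adjusted p = 0.0661) or without wild-type replicate 1 (-1.78, limma adjusted p = 0.0504). The brightest gene probe of Dleu2 itself rose in mESC by 0.26 ± 0.08 (limma adjusted p = 0.0465), and its change of 0.29 ± 0.12 in iPSC did not pass the test (limma adjusted p = 0.103). A member probe with the same sequence belongs to chr14:62263564-62307496, R, which spans both intervals. That member rose by 0.28 in mESC (limma adjusted p = 0.0244), and its iPSC change of 0.27 did not pass (limma adjusted p = 0.104).

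Between Sox1ot and Spaca7, the R strand of chr8:12535648-12544923 read -2.35, -2.37, -2.38 and -2.55 in Tbx3-low and -0.68, -0.85, -0.73 and -0.65 in Tbx3-high, a rise of 1.69 ± 0.08 (limma adjusted p = 1.73e-07). It read -1.91 and -1.77 in null and -0.58 and -0.75 in wild type, a change of -1.18 ± 0.11 (limma adjusted p = 3.40e-05). In each cell type the groups lay apart, and 4 probes were called in mESC and 4 of 5 in iPSC. Neither Spaca7, 55740 bases away, at 0.18 and -0.34, nor Sox1ot, 99203 bases away and tested in iPSC only, at -0.22, passed the test.

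Near Scarb1, the gene of a lipoprotein receptor, the R strand of chr5:125713450-125735500 moved the other way. It read -0.72, -0.81, -0.56 and -0.42 in Tbx3-low and -2.0, -2.21, -1.92 and -2.19 in Tbx3-high, a change of -1.45 ± 0.10 (limma adjusted p = 3.24e-06). It read -3.74 and -3.54 in null and -4.96 and -4.85 in wild type, a change of 1.26 ± 0.15 (limma adjusted p = 0.00017). Scarb1, 21983 bases away, changed by 0.19 in mESC, which did not pass, and by -0.42 ± 0.13 in iPSC (limma adjusted p = 0.0354).

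On the X chromosome the R strand of chrX:6982891-7008528 read 1.33, 1.39, 1.41 and 1.5 in Tbx3-low and 0.19, 0.19, 0.28 and 0.29 in Tbx3-high, a change of -1.17 ± 0.07 (limma adjusted p = 7.63e-07). It read 1.91 and 1.81 in null and 0.47 and 0.62 in wild type, a change of 1.31 ± 0.10 (limma adjusted p = 5.73e-06). The gene probe of 2010204K13Rik on the same strand changed by -1.06 ± 0.07 (limma adjusted p = 1.46e-06) and 1.19 ± 0.09 (limma adjusted p = 1.05e-05). The nearest gene on the left, the deubiquitinase gene Usp27x, changed by -0.92 ± 0.11 (limma adjusted p = 0.000124) and 0.98 ± 0.16 (limma adjusted p = 0.00126).

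On the R strand of chr18:77968421-77972209, which holds a probe of A330094K24Rik, Tbx3-low read -1.56, -1.5, -1.41 and -1.23 and Tbx3-high -2.43, -2.31, -2.25 and -2.36, a change of -0.91 ± 0.12 (limma adjusted p = 0.000214). Null read -2.19 and -2.19 and wild type -4.32 and -4.90, a change of 2.42 ± 0.17 (limma adjusted p = 4.85e-06). No array of one group reached the other in either cell type, and A330094K24Rik changed by -1.09 ± 0.23 (limma adjusted p = 0.00561) and 2.44 ± 0.34 (limma adjusted p = 0.000481).

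Fewer members moved the same way in both. On the R strand of chr6:108556270-108573161, between 0610040F04Rik and the basic helix-loop-helix repressor gene Bhlhe40, Tbx3-low read 2.12, 2.19, 2.32 and 2.29 and Tbx3-high 1.19, 1.10, 1.06 and 1.07. The change was -1.13 ± 0.10 (limma adjusted p = 1.60e-05). In iPSC it was -0.65 ± 0.15 (limma adjusted p = 0.00798), a call that did not hold without null replicate 1 (limma adjusted p = 0.0604) or wild-type replicate 1 (limma adjusted p = 0.0563). Strand F of chr4:123155515-123361565, 28409 bases from Ndufs5, a gene of respiratory complex I, rose by 1.18 ± 0.16 in mESC (limma adjusted p = 0.000286) and by 0.75 ± 0.23 in iPSC (limma adjusted p = 0.0362). The iPSC call was lost without null replicate 1 (limma adjusted p = 0.0975) or 2 (limma adjusted p = 0.14) and without wild-type replicate 1 (limma adjusted p = 0.0825) or 2 (limma adjusted p = 0.165). Bhlhe40 itself, 43148 bases away, changed by -0.53 ± 0.14 in mESC (limma adjusted p = 0.0167) and by 0.64 ± 0.20 in iPSC (limma adjusted p = 0.0385).

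To ask whether the 2 comparisons differ, the changes were added, high minus low plus null minus wild type, so that 0 means equal and opposite changes. Of 2894 interval-strands so tested, 419 differed from 0, 204 above and 215 below, against a background of 27.9% of all probes. With the 75th percentile taken over probes detected on all arrays the split was 113 above and 256 below. With quantile normalization it was 222 and 212, and with probes well above background in every group 205 and 194. For the X chromosome strand this sum was 0.14, for the chromosome 5 strand -0.19 and for the Dleu2 strands -0.39 and 0.10, none past the test. For chr8:12535648-12544923, R, it was 0.50 (limma adjusted p = 0.0173), and for the strand near Bhlhe40 -1.77 (limma adjusted p = 3.46e-05).

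The strands of an interval were then compared directly, by testing the change of F minus R within arrays. In mESC 31 of 581 intervals tested on both strands changed (5.34%), F relative to R rising in 18 and falling in 13, and 115 had an unadjusted p under 0.05. In iPSC 40 of 808 changed (4.95%), 23 up and 17 down, with 146 at an unadjusted p under 0.05. Both strands were called in 9 intervals of the mESC, 5 in the same and 4 in opposite directions, and in 19 of the iPSC, 16 in the same and 3 in opposite directions. Only F was called in 42 and only R in 80 intervals of the mESC, and in 70 and 111 of the iPSC. Across intervals the changes of F and R correlated weakly (Pearson's r = 0.21 in mESC and 0.18 in iPSC, points sharing the same arrays). The mESC count was sensitive to single arrays: without Tbx3-low replicate 2, 3 or 4 it was 5, 14 or 12, and without Tbx3-high replicate 1, 2 or 3 it was 9, 7 or 14. The iPSC count was 26 without null replicate 1, 17 without wild-type replicate 1 and 20 without wild-type replicate 2.

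Where the F and R probes lie opposite each other, the strand comparison concerns the same bases. Representative probes were complementary over 25 bases or more in 62 intervals of the mESC and 94 of the iPSC. Either strand was called in 14 and 23 of these, both in 1 and 3, always in the same direction. F and R changes had the same sign in 53.2% and 50.0% of them, against 55.7% and 57.4% of intervals whose probes are not complementary.

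The pair near Scarb1 separated the strands. Its F probe read -3.11, -2.72, -2.75 and -2.98 in Tbx3-low and -3.01, -2.96, -3.27 and -3.28 in Tbx3-high, which overlap, and its change of -0.24 ± 0.12 did not pass the test (limma adjusted p = 0.18). The difference between the strands, F minus R, changed by 1.22 ± 0.18 (limma adjusted p = 0.00299). In iPSC F changed by 0.19 ± 0.17 and F minus R by -1.07 (limma adjusted p = 0.043), which did not pass without any 1 of the 4 arrays (limma adjusted p = 0.0816 to 0.249).

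The pair at 2010204K13Rik did not separate them. The F probe read -2.42, -2.77, -3.04 and -2.82 in Tbx3-low and -3.86, -3.92, -3.63 and -4.30 in Tbx3-high, and -2.22 and -2.26 in null against -3.82 and -3.23 in wild type. Its changes of -1.16 ± 0.17 (limma adjusted p = 0.00058) and 1.28 ± 0.26 (limma adjusted p = 0.00398) nearly equalled those of the R probe. F minus R changed by 0.01 in mESC and -0.03 in iPSC. Another complementary pair, chr11:16831925-16851121 with 33 shared bases, changed on R alone in iPSC (-1.63, limma adjusted p = 3.39e-06, with F at 0.13 and F minus R at 1.76, limma adjusted p = 0.00415).

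Near Eomes, the gene of a T-box factor of early development, the strands moved in opposite directions. In chr9:118291593-118324230, 70195 bases from the Eomes probe, F read 0.28, 0.15, -0.03 and 0.15 in Tbx3-low and -0.45, -0.30, -0.17 and -0.09 in Tbx3-high, a change of -0.39 ± 0.10 (limma adjusted p = 0.0156). R read -0.13, -0.25, -0.24 and -0.12 in Tbx3-low and 0.82, 0.65, 0.54 and 0.52 in Tbx3-high, a change of 0.82 ± 0.13 (limma adjusted p = 0.000947). F minus R changed by -1.22 ± 0.21 (limma adjusted p = 0.00952) in mESC and by 1.83 ± 0.31 (limma adjusted p = 0.00571) in iPSC. The iPSC difference did not pass without wild-type replicate 1 (1.65, limma adjusted p = 0.0684). In iPSC F changed by 0.47 ± 0.15 (limma adjusted p = 0.0368), lost without null replicate 2 (limma adjusted p = 0.22) or wild-type replicate 1 (limma adjusted p = 0.15) or 2 (limma adjusted p = 0.0994), and R by -1.36 ± 0.19 (limma adjusted p = 0.000522).

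These values hold for the representative probes only. In mESC 3 of 5 R probes of this interval were called, and the second tested F probe changed by 0.70 instead, so that the mean of its F probes changed by 0.15 (limma adjusted p = 0.506). In iPSC 1 of 6 R probes was called, and their mean changed by -0.24 (limma adjusted p = 0.314). Eomes changed by 1.38 ± 0.10 in mESC (limma adjusted p = 3.81e-06) and by -1.65 ± 0.15 in iPSC (limma adjusted p = 2.34e-05), in the direction of the R strand.

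Between Zfp985 and Zfp979, in chr4:146965675-146979325, the iPSC strands moved apart. F read 0.22 and 0.25 in wild type and 1.90 and 2.08 in null, and R read 0.72 and 0.64 in wild type and -0.17 and -0.45 in null. F rose by 1.76 ± 0.11 (limma adjusted p = 1.74e-06) and R fell by 0.99 ± 0.17 on the log2 scale (limma adjusted p = 0.00144), and the groups overlapped on neither strand. F minus R changed by 2.75 ± 0.22 (limma adjusted p = 3.95e-05). The F probe matches that of chr4:146889650-146904300, F, at 52 bases, and that probe rose by 1.87. Which of these intervals the F signals came from was not tested. Of the R probes 1 of 2 was called, and the other changed by 0.51. In mESC both strands changed by 0.14 and neither passed the test. Zfp979 rose by 0.87 ± 0.09 in null (limma adjusted p = 4.64e-05) and Zfp985 changed by 0.15 without passing.

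In chr10:39383665-39442690, between Traf3ip2 and Rev3l, F rose by 1.0 ± 0.16 (limma adjusted p = 0.000931) and R changed by -0.96 ± 0.23 in iPSC (limma adjusted p = 0.0104, but 0.0747 without null replicate 2 and 0.0537 without wild-type replicate 1). The F minus R change there was 1.96 ± 0.25 (limma adjusted p = 0.00077).

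In iPSC most of the largest changes of F minus R came from strands that fell alone. In chr4:140609589-140614789 the R strand was at least 6.27-fold lower in null (limma adjusted p = 0.000195), with all 3 tested probes called, while F changed by 0.30 without passing. F read -2.74, -2.68 and -2.66 in Tbx3-high replicates 1 to 3 and -2.14 in replicate 4. In the interval near Nhsl1 F fell as described and R changed by 0.002 (F minus R -3.15 ± 0.29, limma adjusted p = 7.62e-05). In the interval near Ccn2 R fell and F changed by 0.26 (F minus R 3.13 ± 0.31, limma adjusted p = 0.000106). At chr14:20893694-20903726, around Saysd1, R fell by 2.65 ± 0.08 on the log2 scale (limma adjusted p = 9.86e-09) with all 4 tested probes called, and F changed by 0.23. The gene probe of Saysd1, on R, was at least 3.63-fold lower in null (limma adjusted p = 7.02e-07). In chr10:66349796-66378261 the F strand was at least 3.31-fold lower in null (limma adjusted p = 0.00585, but 0.0552 without null replicate 1 and 0.0571 without wild-type replicate 1). Because F was dim in null, the fitted F minus R change of -2.96 is no measured size. With probes well above background in both groups it was -1.37 and did not pass the test (limma adjusted p = 0.426).

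In mESC 1 of 9 named strand differences passed the test in every alternative examined, that of chr18:3003075-3016150. F read 2.40, 2.50, 2.19 and 2.11 in Tbx3-low and 1.84, 2.01, 1.51 and 1.67 in Tbx3-high, and R read 4.30, 4.26, 4.07 and 4.15 in Tbx3-low and 4.96, 4.81, 4.88 and 4.82 in Tbx3-high. F fell by 0.54 ± 0.14 on the log2 scale (limma adjusted p = 0.0141), R rose by 0.67 ± 0.07 (limma adjusted p = 5.50e-05), and F minus R changed by -1.21 ± 0.16 (limma adjusted p = 0.000991). In iPSC R changed by -1.02 ± 0.10 (limma adjusted p = 4.93e-05) and F by 0.32 without passing. The iPSC difference of the strands was 1.34 (limma adjusted p = 0.00571, and 0.0683 without wild-type replicate 1). Other large mESC differences were less stable: 1.48 in chr14:43929100-43945100 (limma adjusted p = 0.0373), where Tbx3-low replicate 4 read -0.32 on R against -2.94 to -2.48 on the other Tbx3-low arrays, and 1.43 around Mirt1 (limma adjusted p = 0.0331). Leaving out 1 array ended the first without Tbx3-low replicate 2 or any Tbx3-high replicate (limma adjusted p = 0.0593 to 0.0823) and the second without Tbx3-low replicate 1 or 2 or Tbx3-high replicate 3 or 4 (limma adjusted p = 0.0545 to 0.0762). In the interval near Zfhx2 R rose as above, F changed by -0.07 without passing, and F minus R changed by -1.09 (limma adjusted p = 0.000991). The 9 also include F minus R changes of -0.78 in chr13:74642700-74701900 (limma adjusted p = 0.0362) and -0.81 in chr1:183783306-183834531 (limma adjusted p = 0.0345). Between Foxf2 and Foxc1, in chr13:31736054-31781679, the mESC change of F minus R was -0.68 (limma adjusted p = 0.0331).

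Although the design calls these regions intergenic, 602 intervals hold a probe with a gene symbol, on the same strand in 544 interval-strands, of which 463 were detected. Where an interval-strand was called and its inner same-strand gene probe was tested, 92 in mESC and 113 in iPSC, the gene was called in 53 and 64, in the same direction in 53 and 61. The changes correlated across such intervals with Pearson's r of 0.72 and 0.70. Some member probes have the same sequence as a gene probe, as given below, and the part of such pairs in this agreement was not tested. The shares of inner same-strand genes called were 57.6% and 56.6%. Beside interval-strands that were not called the inner same-strand gene was called in 25.6% and 20.4% (r = 0.39 and 0.26). Inner genes on the opposite strand of a called strand were called in 12 of 22 and 17 of 32 (r = 0.61 and 0.44), in the same direction in 11 and 13. Those shares, 54.5% and 53.1%, are close to the same-strand shares. Beside interval-strands that were not called, the opposite-strand gene was called in 41 of 144 and 57 of 200 (r = 0.18 and 0.08). For called interval-strands whose nearest gene lay outside but within 50 kb, 184 and 252, the gene was called in 72 and 95, in the same direction in 56 and 62 (r = 0.38 and 0.24). These are shares of 39.1% and 37.7%, against 27.1% and 29.8% beside interval-strands that were not called. The differences between these shares were not tested. Points share arrays, and genes are not independent replicates.

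The intervals with the most gene symbols inside were 7451 to 350551 bases long. The F strand of chr2:177467500-177818050 holds 6, zinc finger and predicted genes such as Zfp931 and Zfp971, and rose in Tbx3-high by 0.37 ± 0.09 (limma adjusted p = 0.00925). The R strand of chr15:95965249-96114921, with 3 such probes, fell by 1.06 ± 0.23 on the log2 scale (limma adjusted p = 0.00668). The F strand of chr12:4133875-4243375, with Adcy3, Cenpo and Ptrhd1, changed by 0.03 and -0.41 and passed in neither comparison. Both strands of the shortest, chr16:4867322-4874772, which holds the Ubald1 probe, changed by 0.28 (F) and 0.17 (R) in mESC and by 0.19 and -0.32 in iPSC, and none of these passed the test (limma adjusted p = 0.209 to 0.59).

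Identical sequences show how far repeated probes gave the same change, and cannot check the interval names. Of the member probes, 76 have the same 60 bases as another probe, 41 of them as one with a gene symbol. In the 37 pairs tested in mESC and 47 in iPSC, both were called in 10 and 10, always in the same direction. The member was called in 11 and 13 pairs and the other probe in 11 and 16. The median absolute difference of their changes was 0.063 and 0.138. The member in chr3:87757295-87774970, F, is identical to the probe of Crabp2, a retinoic acid binding protein gene, and changed by -1.24 in mESC (limma adjusted p = 5.52e-06) and 0.98 in iPSC (limma adjusted p = 0.000501). The member in chr11:96112907-96125798, F, is identical to that of the noncoding gene Gm53 and changed by 0.91 (limma adjusted p = 0.000107) and -1.26 (limma adjusted p = 0.00019).

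Named long noncoding RNA genes gave a view of the same class under gene names. Of 55 listed, 39 were on the array. In mESC 30 were tested, 4 higher and 3 lower in Tbx3-high, with a median change of 0.015, where 25.1% of all probes were called and their median change was 0.03. In iPSC 31 were tested, 5 higher and 3 lower in null, with a median of 0.042, where 28.1% of all probes were called and their median was 0.06. Neat1, the scaffold RNA of paraspeckles, changed by -0.71 ± 0.11 (limma adjusted p = 0.000811) and 1.04 ± 0.16 (limma adjusted p = 0.000953). Malat1, an abundant nuclear RNA, changed by 0.67 ± 0.18 (limma adjusted p = 0.02) and -1.0 ± 0.27 (limma adjusted p = 0.0192). The imprinted H19 fell by 3.30 ± 0.27 on the log2 scale in Tbx3-high (limma adjusted p = 8.84e-06), and Sox2ot, which overlaps Sox2, changed by -2.84 ± 0.16 in null (limma adjusted p = 1.18e-06).

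Polyadenylation letters did not mark the detected members. The motif AATAAA, searched on the probe strand, occurs in 3.92% of member probes and on the opposite strand in 3.02%. Among detected probes it occurs in 3.91% and among the others in 3.92%. ATTAAA occurs in 2.47%, and in 2.24% on the opposite strand. A match is a description of these letters and not a processing site.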

How the data were processed

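RNA from 12 samples was hybridised to 12 one-colour Agilent arrays, and per the file headers Feature Extraction 10.7.3.1 made the deposited processed intensity values by background subtraction and spatial detrending, with probes placed on mm9. The series table holds log2 values that the authors deposited with unstated scaling, used here as an alternative. Members and gene lists were chosen with earlier results of these data known. Intensities were taken as log2 after leaving out outlier spots, spots of a probe were averaged, and each array's 75th percentile was subtracted. A probe was tested where it was well above background on all arrays of at least 1 of the 2 groups. limma 3.58.1 in R 4.3.3 fitted 4 group means on 12 arrays (8 residual df), with Benjamini-Hochberg adjustment over all tested probes, or over intervals for F minus R within arrays, at 0.05. Errors beside changes are SE. "At least" folds set the bright group's mean against the dim group's, each array no lower than its lowest well-above-background signal.

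The text names up to 10 largest rises and 10 largest falls per comparison without overlap of arrays, up to 6 strand intervals per comparison, up to 6 strands called in both comparisons, up to 5 intervals with most genes, and those within 500 kb of Tbx3; strands moving apart and complementary pairs beyond these were chosen after their values were seen. An interval that met these rules is not reported here. Genes were named through RefSeq (27741 probes by accession, 3347 by symbol, 300 by synonym, 8112 unnamed). Neighbours are gene probes on the array, since no mm9 annotation was used. Replicates sharing a number deviated together in mESC (r = 0.154, 0.244, 0.166 and 0.119) and not in iPSC (0.003). Arrays of other numbers in the same slide row gave 0.041 to 0.338 and those of the other row -0.30 to -0.074, so number and row cannot be told apart. Printed p-values come from the fit with no block, and the mESC block is named where it changes a call. The fit was tested on simulated data. Alternatives covered background correction, scaling, the dim-probe filter, probe summaries, slide row, the replicate block and each array left out.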

Additional observations from a re-analysis of the deposited data

Results flagged for a closer look

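Of 118 groups of 4 arrays examined among the named strands, 4 had an array far from the others, and chance gives about 1 in 20. At chr8:12535648-12544923, R, Tbx3-low replicate 4 read -2.55 against -2.38 to -2.35 on the other 3 arrays, a gap of 0.867 of the group's range. At chr1:115787961-115860711, R, Tbx3-high replicate 3 read -2.52 against -2.92 to -2.85 on the other 3 arrays, a gap of 0.836 of the group's range. At chr4:140609589-140614789, F, Tbx3-high replicate 4 read -2.14 against -2.74 to -2.66 on the other 3 arrays, a gap of 0.863 of the group's range. At chr5:120269342-120279542, R, Tbx3-high replicate 3 read -3.00 against -2.50 to -2.43 on the other 3 arrays, a gap of 0.875 of the group's range. 

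The sum of the mESC and iPSC changes differed from 0 (limma adjusted p under 0.05) in 23 of the 33 named strands where it was tested, and in 419 of all 2894 interval-strands tested (14.5%) and 27.9% of all probes. Most named strands were chosen for a large change in one comparison, so their share is no result about them. It was above 0 in the following 11 strands: 0.50 at chr8:12535648-12544923 R, 1.92 at chr4:123155515-123361565 F, 1.46 at chr5:111565658-111566257 F, 0.86 at chr14:55671783-55680316 R, 4.25 at chr13:31736054-31781679 F, 2.94 at chr5:105032961-105037248 F, 2.85 at chr13:31736054-31781679 R, 2.57 at chr1:115787961-115860711 R, 1.51 at chr18:77968421-77972209 R, 1.81 at chr4:146889650-146904300 F, 2.43 at chr4:140841206-140841639 F. It was below 0 in the following 12 strands: -1.39 at chr10:92547995-92556102 F, -0.92 at chr11:116562925-116574575 R, -2.04 at chr6:57583950-57624216 F, -1.77 at chr6:108556270-108573161 R, -5.03 at chr15:79795261-79796945 R, -5.71 at chr9:4260788-4261404 F, -3.27 at chr10:18036490-18059965 F, -2.75 at chr13:19611679-19620954 R, -3.12 at chr2:176598132-176602354 R, -2.84 at chr12:52944867-52971992 R, -3.40 at chr10:24269165-24276690 R, -2.34 at chr16:91198576-91199149 F. Where a group was dim on all arrays, as at chr6:57583950-57624216 F and chr13:31736054-31781679 F, the sum is a fitted value and not a bound.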

How the results depend on the processing

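The mESC count of called strands was 411, against 259 with no filter on dim probes and 235 on slide row 2 alone, a setting chosen after seeing the data, and 316 to 415 with 1 array left out. The iPSC count was 523, and 313 to 415 with 1 array left out. The sum of the changes gave 419 calls, and 280 to 410. For F minus R, the 31 mESC calls became 7 with no filter, 10 with only the 2 groups fitted, 50 with slide row as a block, 4 on slide row 2 alone, and 5 to 31 with 1 array left out. The 40 iPSC calls became 74 with normexp and quantile, 96 in the series table, 23 with the replicate block, and 17 to 33 with 1 array left out. The replicate block gave 481 calls in mESC and 516 in iPSC, and 27 F minus R calls in mESC. It ended the mESC call at chr10:39383665-39442690, R (limma adjusted p = 0.0605), and no other named mESC call. Detected strands numbered 3634, against 2331 needing 2 probes, 2587 on all arrays, and 3634 to 3769 with 1 array left out. Intervals with both strands numbered 809, against 466, 478 and 809 to 845 under the same settings. The mESC change of chr9:118291593-118324230, F, turned to 0.15 as the mean of its probes, and the iPSC F minus R change of chr13:31736054-31781679 turned to -0.26 with normexp and quantile and -0.36 in the series table; the cause was not tested. Of the named calls, 18 of 32 in mESC and 27 of 40 in iPSC passed in the same direction in every alternative run. So did 1 of 9 mESC strand differences and 7 of 13 in iPSC. These counts include calls whose values are not printed above. Sizes depended on the background correction: of the named calls, 19 of 32 in mESC and 24 of 40 in iPSC were smaller by over 1.5 times on the log2 scale with normexp and quantile, and 18 and 16 in the series table. Dim member probes limit what the arrays can show.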
